A study of Homo sapiens with 30 samples.

Results

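The genes examined here encode the machinery that repairs DNA double-strand breaks and DNA interstrand crosslinks: BRCA1 and its partners, the strand-exchange factors, the nuclease and helicases that process broken ends, the Fanconi anaemia proteins, and the enzymes of end joining. The list holds 38 genes. A gene counted as a member where a probe carried its symbol or an older name for it in the platform annotation (RAD51L3 for RAD51D, FAM175A for ABRAXAS1, C19orf62 for BABAM1, BRE for BABAM2) and that probe was detected (detection p-value below 0.01) on 3 or more arrays. That gave 49 probes of 32 genes, out of 48802 probes on the array, of which 27577 carried 1 gene symbol and 17001 of those met the same detection rule. Of the other listed genes, ABRAXAS1 and FANCM had a named probe that did not meet the detection rule, and RBBP8, BRCA2, FANCA and FANCD2 were not analysed here. In the smaller of the 2 experiments 29 members were tested, since FANCF, XRCC4 and NHEJ1 did not meet the rule there.

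RNA was taken from U2OS, a human osteosarcoma cell line, infected with retroviruses carrying short hairpin RNAs (shRNAs), which deplete a chosen transcript, and was read on 30 Illumina bead arrays. Irradiated cells received 5 Gy from a 137Cs source 2 days after infection, unirradiated cells a mock treatment, and RNA was collected 4 h later. The first experiment held 24 arrays in 8 groups of 3: the control virus pSIREN neg, the NFBD1 hairpin pSIREN NFBD1sh b, the p53 hairpin pSIREN p53, and the last 2 viruses together, each with and without irradiation. The second experiment held 6 unirradiated arrays on 1 chip, 3 with another NFBD1 hairpin (pSIREN NFBD1a, called the second hairpin below) and 3 with pSIREN neg. All cells, the controls included, carried a retrovirus, and each NFBD1 and p53 depletion rests on 1 hairpin within an experiment. The labels do not say that the 3 arrays of a group came from separate cultures, so the p-values below measure the spread between these samples, which may be technical.

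NFBD1, better known as MDC1, is a scaffold protein that binds phosphorylated histone H2AX beside a break and recruits the ubiquitin ligases that in turn bring in the BRCA1-A complex. In homologous recombination the broken ends are resected, strand exchange is set up with BRCA2, PALB2 and several smaller factors, and the intact sister chromatid serves as the template, so the pathway works mainly in S and G2 phase. The Fanconi core complex ubiquitinates FANCD2 and FANCI at interstrand crosslinks, while end joining ligates broken ends with no template throughout the cell cycle. Many of these proteins are regulated by modification and recruitment to the break, which a transcript measurement does not read.

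The promoters of 4 members are printed because these genes carried the changes described below: RAD51C, EXO1 and BRCC3 were called with hairpin b, and BABAM2 had the farthest change of any member with the second hairpin. Each window holds 300 bases, 250 before and 50 after the gene's start in RefSeq (GRCh38.p14, 5′ to 3′ on the coding strand), at chr17:58692323-58692622 on the plus strand for RAD51C, chr1:241847954-241848253 on the plus strand for EXO1, chrX:155071258-155071557 on the plus strand for BRCC3 and chr2:27890479-27890778 on the plus strand for BABAM2. Capitals mark matches, on either strand, to GGGCGG (the GC box), to TGACGTCA (the cyclic-AMP response element, CRE) and to an E2F-type motif (TTTCCCGC, TTTGGCGC or TTTCGCGC).
RAD51C: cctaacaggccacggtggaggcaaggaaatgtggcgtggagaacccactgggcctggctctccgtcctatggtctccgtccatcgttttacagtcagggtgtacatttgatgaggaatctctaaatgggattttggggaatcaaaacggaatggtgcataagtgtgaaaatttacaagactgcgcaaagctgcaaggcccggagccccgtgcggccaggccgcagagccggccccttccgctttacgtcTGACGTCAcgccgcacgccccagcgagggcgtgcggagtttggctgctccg
EXO1: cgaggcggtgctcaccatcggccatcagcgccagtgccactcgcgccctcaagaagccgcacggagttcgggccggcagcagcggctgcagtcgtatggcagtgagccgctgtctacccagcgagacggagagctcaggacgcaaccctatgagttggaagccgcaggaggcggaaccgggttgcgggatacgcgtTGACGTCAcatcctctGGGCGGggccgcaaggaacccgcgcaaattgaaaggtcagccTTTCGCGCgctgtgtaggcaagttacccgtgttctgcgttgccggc
BRCC3: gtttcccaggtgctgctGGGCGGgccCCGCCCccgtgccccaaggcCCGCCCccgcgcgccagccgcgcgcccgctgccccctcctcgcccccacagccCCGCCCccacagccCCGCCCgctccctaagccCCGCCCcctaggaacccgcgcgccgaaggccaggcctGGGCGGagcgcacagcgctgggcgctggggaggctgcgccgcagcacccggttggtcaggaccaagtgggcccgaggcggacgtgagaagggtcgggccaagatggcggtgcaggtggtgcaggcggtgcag
BABAM2: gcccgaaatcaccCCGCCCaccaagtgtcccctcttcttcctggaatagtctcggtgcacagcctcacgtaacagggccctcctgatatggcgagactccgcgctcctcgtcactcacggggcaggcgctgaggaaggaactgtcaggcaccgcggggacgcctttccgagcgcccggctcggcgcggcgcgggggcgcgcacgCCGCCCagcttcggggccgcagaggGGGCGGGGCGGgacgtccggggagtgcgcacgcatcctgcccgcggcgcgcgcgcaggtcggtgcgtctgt
The RAD51C window held a CRE across the gene's start and no GC box. The EXO1 window held 1 CRE, 1 GC box and 1 E2F-type match. The BRCC3 window held 7 GC boxes and the BABAM2 window 4, the last 2 of which overlap by 1 base. CCAAT and TTTGAA (the CHR element of G2/M genes) were also searched and were not found in these 4 windows.

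RefSeq promoters were matched for 27 of the 32 members, and their median GC content was 64.3%, against 58.3% over 27305 promoters of the same length. A GC box was found in 22 member promoters (81.5%), against 44.6% of all promoters. An E2F-type match was found in 4 (EXO1, FANCC, XRCC2 and XRCC6, 14.8%), against 2.79% of all promoters. A CRE was found in 3 (EXO1, RAD51C and XRCC2, 11.1%), against 1.98%, and this motif was added after the sequences had been read. CCAAT was found in 11 (40.7% against 35.7%) and TTTGAA in 3 (11.1% against 15.4%). These matches describe letters in a window and were not tested as binding sites.

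Between 34.1% and 40.3% of all probes were detected on an array, and the median raw signal lay between 46.5 and 63.7 in the first experiment and between 36.7 and 43.5 in the second. MDC1, the gene targeted by both NFBD1 hairpins, was 9.01 ± 0.28 (log2 intensity, SD, n = 3) in unirradiated control cells and 7.59 ± 0.48 with hairpin b, and its change averaged over the 4 settings of hairpin b was -1.40 (SE 0.12, limma adjusted p 4.033e-08). With the second hairpin MDC1 stood at 6.24 ± 0.08 against 8.65 ± 0.12, a change of -2.41 (SE 0.08, limma adjusted p 6.435e-07). The p53 transcript was not analysed here. With p53 shRNA averaged over its 4 settings, 19 of 20 tested p53 target genes were called lower, with a median log2 change of -0.68. Of 10 markers listed for a mesenchymal osteosarcoma line 8 were detected on at least 3 arrays, with COL1A2 and SP7 detected on none. Of 8 epithelial markers 5 were detected, among them EPCAM, KRT8 and KRT18 on all 30 arrays, while KRT19 and KRT5 were detected on none. Of 6 named blood markers 3 were detected (ITGB2 on 30 arrays, CD14 on 21 and HBB on 12), with PTPRC, CD3E and HBA1 at 0 arrays. Of 6 neural markers 4 were detected (NEFL and STMN2 on 30 arrays, SOX2 on 25 and SYP on 6). No array duplicated another (highest Spearman correlation 0.927).

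Most members were detected throughout the first experiment. Of 32 members, 29 were detected on all 24 arrays, the others being BRIP1 (23 arrays), NHEJ1 (19) and FANCF (7). The range of a member's 8 group means had a median of 0.32 on the log2 scale, beside 0.36 over all 12419 genes tested, and the SD over the 24 arrays had a median of 0.19, beside 0.22. UIMC1, the ubiquitin-binding subunit of the BRCA1-A complex also called RAP80, had the narrowest range of group means at 0.17. BRCA1, the ubiquitin ligase and scaffold of homologous recombination, was next at 0.22. Its 24 values ran from 8.40 to 9.06 with a median of 8.81. The widest ranges of group means belonged to BRCC3 (0.63), FANCC (0.59) and DCLRE1C (0.57). Since RNA was read from whole cultures, fewer cells of a type and less RNA per cell cannot be told apart in any of these values.

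XRCC2, a strand-exchange factor, had the widest spread over single arrays, with an SD of 0.45. Its values ran from 7.88 to 9.76 with a median of 9.01. In the group with both shRNAs at 5 Gy its 3 arrays read 9.45, 9.04 and 7.88, so the spread lay within a group. Replicate 3 was the lowest array of XRCC2 in each of the 8 groups. Its change averaged over hairpin b was -0.15 (95% confidence interval -0.52 to 0.22), and its change averaged over p53 shRNA was -0.24 (-0.61 to 0.13), neither of which was called by limma (adjusted p 0.753 and 0.566). With replicate number as a block both changes had an SE of 0.10, and limma again called neither (adjusted p 0.414 and 0.15).

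**Figure D1:**
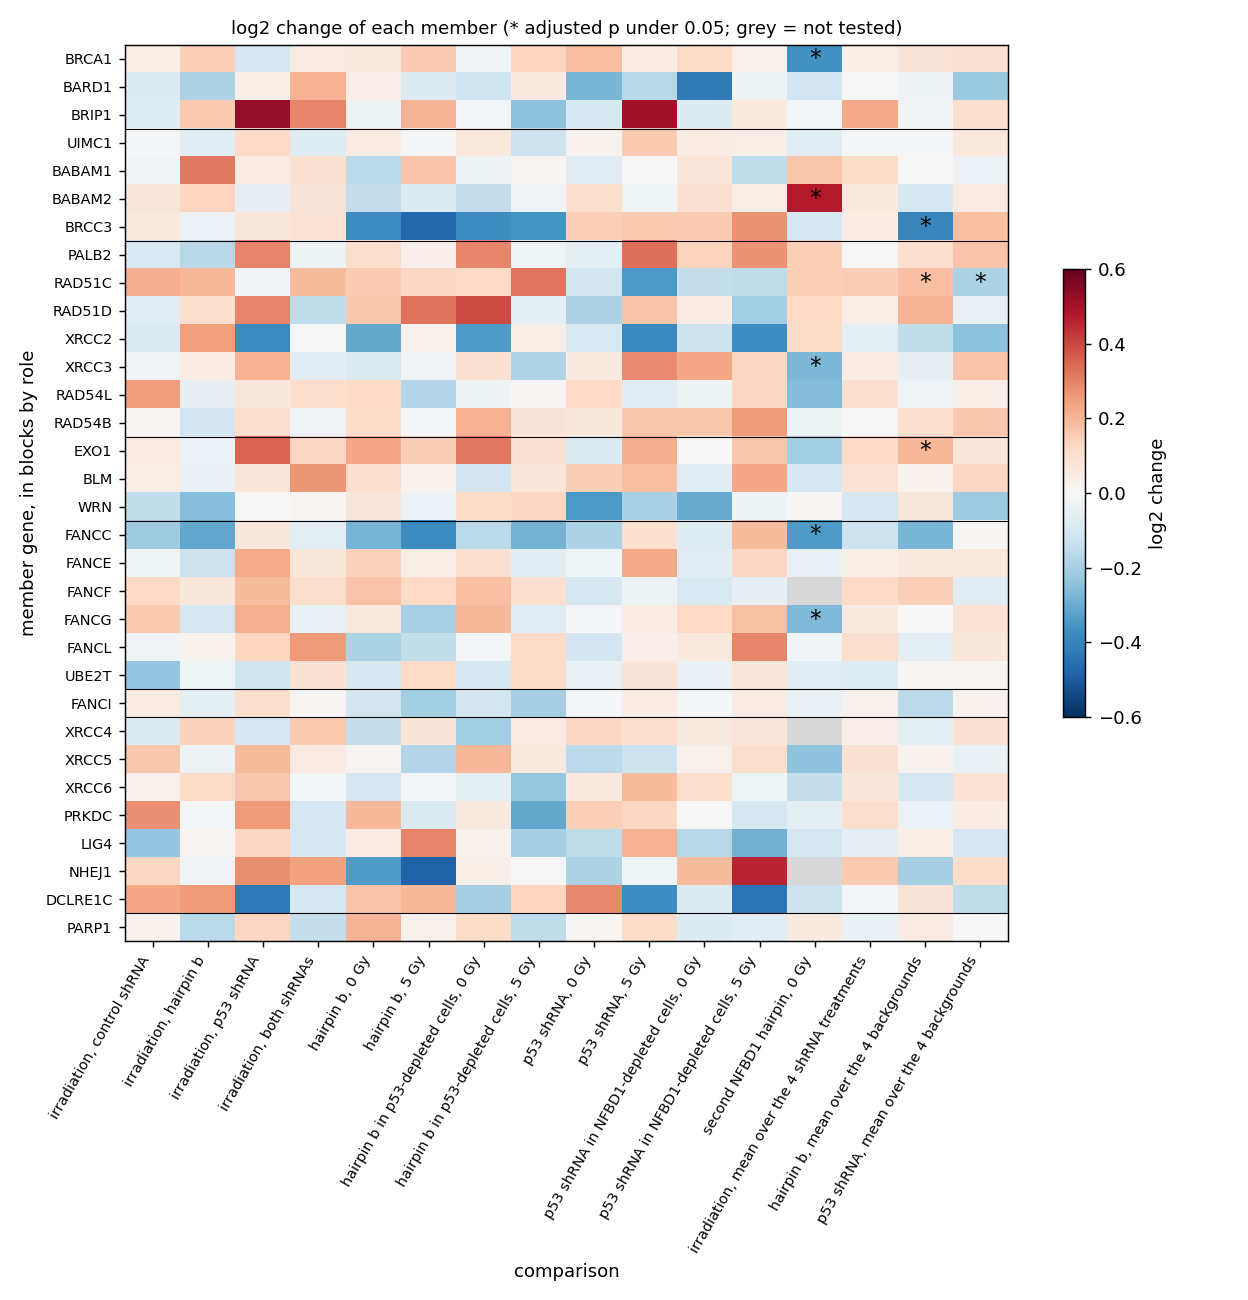
Log2 change (colour) of each of the 32 members (rows, in blocks by role) in 16 comparisons (columns), with an asterisk where the adjusted p was under 0.05 and grey where a member was not tested. The 9 asterisks lie in 3 columns: 5 with the second hairpin, 3 with hairpin b averaged and 1 with p53 shRNA averaged.

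The first question was whether irradiation moved these transcripts within 4 h. No member was called in any of the 4 irradiation comparisons or in their mean. In control shRNA cells 0 of 32 members were called, where 0.588% of all 12419 genes were. The shares of all genes called were 0.757% with hairpin b, 0.25% with p53 shRNA and 0.201% with both, again with 0 of 32 members each. In the mean over the 4 shRNA treatments, which sets 12 irradiated arrays against 12 unirradiated ones, 0 of 32 members were called where 1.8% of all genes were, and 2 members (6.25%) had an unadjusted p under 0.05 where 8.95% of all genes had. In that mean every member's 95% confidence interval lay within a 1.5-fold change in either direction, the farthest bound being 0.46 on the log2 scale, for BRIP1.

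RAD51C, a strand-exchange factor that works in 2 complexes, had the smallest p in the irradiation mean. In control cells it read 11.69, 11.65 and 11.58 at 0 Gy and 11.88, 11.88 and 11.81 at 5 Gy, so these 2 groups of 3 did not overlap. At the other 2 RAD51C probes these control groups did overlap. With p53 shRNA RAD51C read 11.41, 11.62 and 11.55 at 0 Gy and 11.66, 11.50 and 11.37 at 5 Gy at the probe used here, where the groups did overlap. With both shRNAs its irradiated arrays all lay above its unirradiated ones (lowest 11.7314 against highest 11.7265), and with hairpin b the groups overlapped. No interaction of irradiation with p53 shRNA was called for RAD51C. Its mean irradiation change was 0.15 (SE 0.05, 95% confidence interval 0.04 to 0.25), higher in 9 of 12 pairs of arrays on the same chip, with a limma adjusted p of 0.265. The other 2 RAD51C probes changed by 0.145 and 0.083 in that mean (limma adjusted p over all probes 0.693 and 0.947). EXO1, the exonuclease that lengthens resected ends, was next at 0.12 (SE 0.06, 0.01 to 0.24, limma adjusted p 0.526). BRIP1, the BRCA1-bound helicase, had the highest mean change of any member, 0.23 (-0.01 to 0.46), and FANCC, a Fanconi core subunit, the lowest, -0.13 (-0.31 to 0.06), and limma called neither. BRCA1 itself moved by 0.03 (-0.12 to 0.18).

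Within single treatments the members with the smallest p differed from one treatment to the next. In control cells UBE2T, the ubiquitin-conjugating enzyme of the Fanconi pathway, read 10.75, 10.84 and 10.96 at 0 Gy and 10.71, 10.60 and 10.55 at 5 Gy. The 2 groups did not overlap, and the change was -0.23 (95% confidence interval -0.45 to -0.01, limma p 0.0374, adjusted p 1.00), beside 0.22 (0.00 to 0.43, limma p 0.0469) for RAD51C. With hairpin b BABAM1, a scaffold subunit of the BRCA1-A complex, read 9.57, 9.70 and 9.64 at 0 Gy and 9.95, 9.91 and 10.00 at 5 Gy. The groups did not overlap, and the change was 0.32 (0.09 to 0.54, limma adjusted p 0.242). WRN, a RecQ helicase with its own exonuclease, moved by -0.26 there (-0.51 to -0.00, limma adjusted p 0.438).

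With p53 shRNA EXO1 read 9.76, 9.50 and 9.61 at 0 Gy and 9.95, 9.94 and 10.03 at 5 Gy, again without overlap. The change was 0.35 (0.11 to 0.58, limma adjusted p 0.638). BRIP1 moved by 0.53 in the same comparison (0.07 to 0.99), and limma gave an adjusted p of 1. With both shRNAs RAD51C (0.19, -0.03 to 0.40) and BLM (0.26, -0.07 to 0.59), the RecQ helicase of Bloom syndrome, had the smallest p, at 0.0836 and 0.111 by limma, and no member had an unadjusted p under 0.05, where 3.00% of all genes had. Over the 4 treatments between 26 and 28 of the 32 intervals lay within a 1.5-fold change.

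By role, the median irradiation change in the mean was 0.03 for BRCA1, BARD1 and BRIP1, 0.05 for the 4 BRCA1-A members, 0.04 for the 7 strand-exchange members, 0.08 for EXO1, BLM and WRN, 0.05 for the 6 Fanconi core and ubiquitination members and 0.07 for the 7 end-joining members. Over the 32 members the median was 0.04, with 22 above 0, beside 0.00 over all genes. Under scale normalization these medians were -0.06 and -0.08, so the sign of the members' median depended on the scaling. Among 37 tested genes of an additional list of break and crosslink repair, 0 were called in the irradiation mean and the median was 0.03. Among 26 DNA replication and G1/S genes 0 were called and the median was 0.02. On the same arrays 25 of 30 G2/M genes were called lower (median -0.52) and 17 of 20 p53 target genes were called higher (median 0.56). Among the latter was CDKN1A, the cell-cycle inhibitor p21, at 1.38 (SE 0.09, limma adjusted p 9.71e-10).

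**Figure D2:**
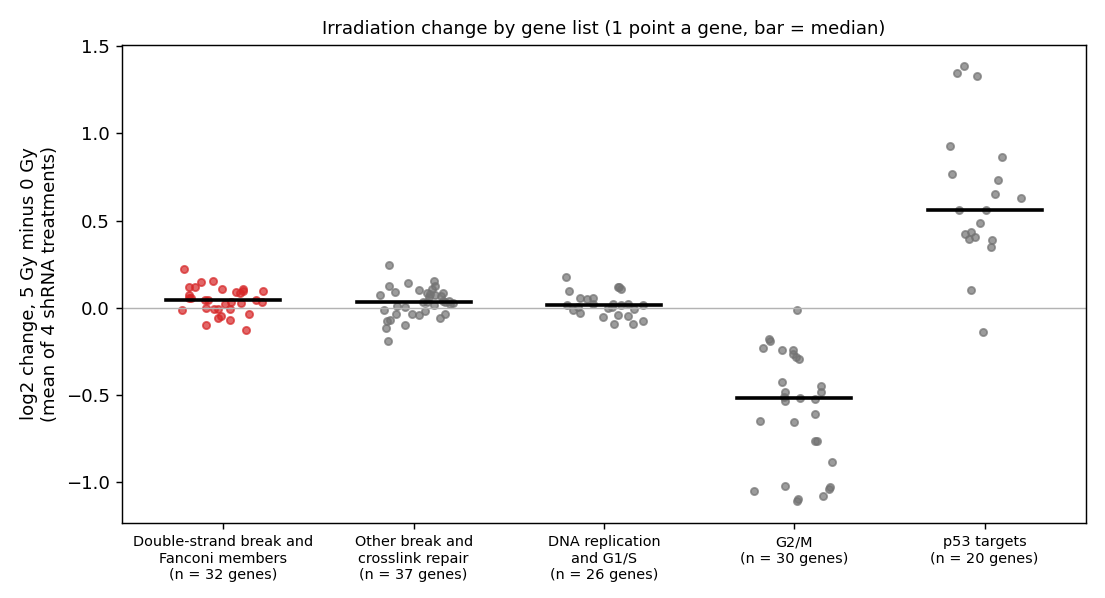
Log2 change at 5 Gy minus 0 Gy, averaged over the 4 shRNA treatments (vertical axis), for the 32 members (red) and 4 other gene lists (grey), 1 point a gene, with a bar at each median. The members lie between -0.13 and 0.23, while the G2/M genes have a median of -0.52 and the p53 targets one of 0.56.

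A second probe departed from this for DCLRE1C, the Artemis nuclease that opens hairpin ends in end joining. The probe with the highest mean, used throughout, changed by -0.01 in the irradiation mean and a second by 0.03. The remaining DCLRE1C probe changed by -0.34 (SE 0.08, limma adjusted p over all probes 0.0337), and the 3 probes may read different transcripts of the gene, which was not tested.

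The second question was how NFBD1 depletion with hairpin b moved the members. Set against the arrays without it, over the 4 settings of 0 or 5 Gy with or without p53 shRNA (12 arrays against 12), BRCC3 fell and EXO1 and RAD51C rose with hairpin b. These are 3 of 32 members (9.38%), where 5.66% of all 12419 genes were called. The 2 higher members stand beside 1.8% of all genes called higher, and the 1 lower member beside 3.87% called lower. At an unadjusted p under 0.05 there were 7 members (21.9%), where 17.98% of all genes passed. The median over the members was -0.00, with 15 of 32 above 0, beside 0.00 over all genes.

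BRCC3 is the deubiquitinase of the BRCA1-A complex and cuts lysine-63-linked ubiquitin chains. In control cells it read 8.45, 8.56 and 8.70 at 0 Gy and 8.74, 8.42 and 8.71 at 5 Gy. With hairpin b it read 7.98, 7.98 and 8.61 at 0 Gy and 7.98, 8.01 and 8.47 at 5 Gy. The first 2 replicates of hairpin b lay below every control array, and replicate 3 did not.

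With p53 shRNA BRCC3 read 8.66, 8.41 and 9.06 at 0 Gy and 8.61, 8.70 and 9.03 at 5 Gy. With both shRNAs it read 8.19, 8.19 and 8.64 at 0 Gy and 8.22, 8.23 and 8.83 at 5 Gy. Replicate 3 was the highest array in each of these 4 groups and in both groups with hairpin b alone, and all of these arrays sat on the same chip, chip 4. Chip 4 held replicate 3 only, so chip and replicate number cannot be told apart in these groups. Between arrays on the same chip BRCC3 was lower with hairpin b in 8 of 8 pairs, by 0.20 to 0.76 on the log2 scale with a median difference of -0.45. Its mean change was -0.39 (SE 0.10, 95% confidence interval -0.61 to -0.18), a 1.32-fold lower level, with a limma adjusted p of 0.0255. The 4 single changes ran from -0.47 to -0.36 and were not called by limma one by one (adjusted p 0.446 to 0.974). With chip as a block in the fit the mean change was -0.46 (limma adjusted p 6.584e-06), and BRCC3 was then called in unirradiated and in irradiated control cells too. A second BRCC3 probe, detected on 4 of the 24 arrays, changed by -0.12 (limma adjusted p over all probes 0.641), and the mean of both probes, -0.26, was not called (limma adjusted p 0.0798).

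EXO1 was higher with hairpin b. It read 9.57, 9.74 and 9.81 in control cells at 0 Gy and 9.85, 9.61 and 9.80 at 5 Gy. With hairpin b it read 10.00, 9.81 and 10.00 at 0 Gy and 9.89, 9.79 and 10.03 at 5 Gy. The groups at 0 Gy met at 9.81 without overlap, and those at 5 Gy overlapped.

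With both shRNAs EXO1 read 9.98, 9.95 and 9.89 at 0 Gy and 10.24, 9.94 and 10.01 at 5 Gy, beside the p53 shRNA values given above. At 0 Gy these groups did not overlap, and at 5 Gy they did. The mean change was 0.20 (SE 0.06, 0.08 to 0.31), 1.15-fold, higher in 7 of 8 pairs on the same chip, with a limma adjusted p of 0.0387. A second EXO1 probe changed by 0.17 (limma adjusted p over all probes 0.0933).

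RAD51C was also called. With hairpin b it read 11.87, 11.80 and 11.70 at 0 Gy and 11.87, 12.06 and 12.02 at 5 Gy, and with both shRNAs 11.73, 11.57 and 11.64 at 0 Gy and 11.73, 11.96 and 11.81 at 5 Gy. All 3 unirradiated hairpin b arrays lay above the control arrays given above, while the irradiated ones overlapped theirs. With both shRNAs at 5 Gy all 3 arrays lay above the p53 shRNA arrays, and at 0 Gy they overlapped. The mean change was 0.18 (SE 0.05, 0.07 to 0.29), 1.13-fold, higher in 6 of 8 pairs on the same chip, with a limma adjusted p of 0.043. The other 2 RAD51C probes changed by 0.12 and 0.02 (limma adjusted p over all probes 0.497 and 0.952), and the probe used here stood at 0.0504 in that adjustment.

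**Figure D3:**
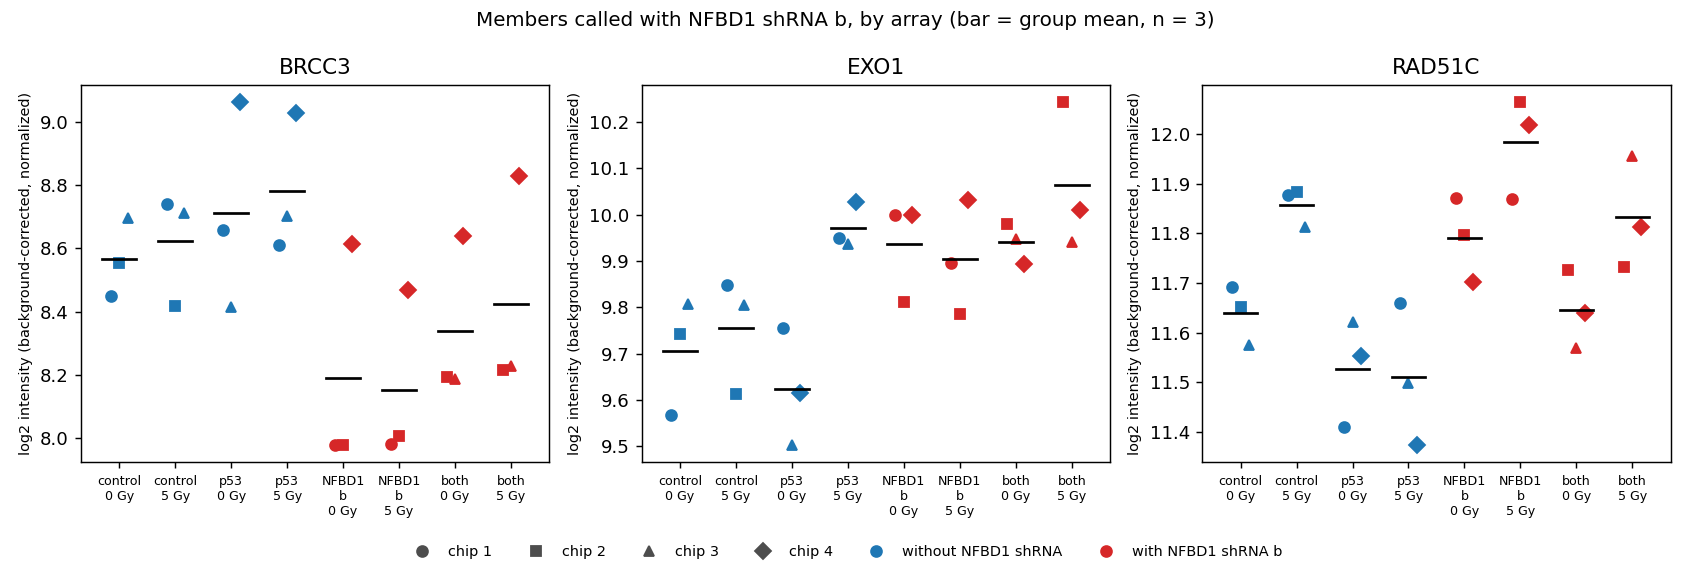
Log2 intensity (vertical axis) of BRCC3, EXO1 and RAD51C on each of the 24 arrays of the first experiment, by group (horizontal axis), with blue points for arrays without and red points for arrays with NFBD1 shRNA b, the marker shape for the chip and a bar at each group's mean. BRCC3 is lower and EXO1 and RAD51C are higher in the averaged comparison. The chip 4 arrays (diamonds), all of them replicate 3, stand highest for BRCC3 in each group they belong to.

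In the fit with no block all 3 of these calls depended on single arrays. With replicate number as a block limma called all 3, with adjusted p 7.55e-05 for BRCC3, 0.0123 for EXO1 and 0.022 for RAD51C. Leaving out arrays was not tried with that block. BRCC3 was called in 19 of 24 fits that each left out 1 array, with limma adjusted p between 0.00745 and 0.0524. It was lost without hairpin b replicate 1 (0.0524) or replicate 2 (0.0521) at 0 Gy, both shRNAs replicate 1 at 0 Gy (0.0509) or replicate 2 at 5 Gy (0.0502), or p53 shRNA replicate 3 at 5 Gy (0.0502). EXO1 was called in 10 of the 24 (limma adjusted p 0.0307 to 0.0791) and its change stayed between 0.18 and 0.21. The EXO1 call was kept without control replicate 3 at 0 Gy, control replicate 1 or 3 at 5 Gy, hairpin b replicate 2 at 0 Gy or replicate 1 or 2 at 5 Gy, p53 shRNA replicate 1 at 0 Gy or replicate 3 at 5 Gy, or both shRNAs replicate 2 or 3 at 5 Gy, and was lost without each of the other 14 arrays. RAD51C was called in 6 of the 24 (0.0259 to 0.0863 by limma), those without hairpin b replicate 3 at 0 Gy or replicate 1 at 5 Gy, p53 shRNA replicate 2 at 0 Gy or replicate 1 at 5 Gy, or both shRNAs replicate 2 at 0 Gy or replicate 1 at 5 Gy.

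Other members stayed short of a call with hairpin b. FANCC had a mean change of -0.28 (SE 0.09, -0.46 to -0.09, limma adjusted p 0.0727), was lower in 7 of 8 pairs on the same chip and was called with replicate number as a block (limma adjusted p 0.0427), a fit that calls 1374 genes (11.1%). RAD51D, which works in a complex with RAD51B, RAD51C and XRCC2, had one of 0.21 (SE 0.07, 0.06 to 0.35, limma adjusted p 0.0943). The other 2 RAD51D probes changed by 0.18 and 0.13 (limma adjusted p over all probes 0.192 and 0.633). NHEJ1, the end-joining factor also called XLF, stood at -0.20 (limma adjusted p 0.196). FANCI, the partner of FANCD2, stood at -0.16 (limma adjusted p 0.198). BRCA1 was higher with hairpin b in 8 of 8 pairs on the same chip, by 0.05 to 0.45, yet its mean change was 0.08 (-0.07 to 0.23) and was not called (limma adjusted p 0.645).

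The control groups sat on chips 1, 2 and 3, the hairpin b groups on 1, 2 and 4, the p53 shRNA groups on 1, 3 and 4 and the groups with both on 2, 3 and 4, so that pairs on the same chip and differences of group means need not have the same size. By role, the calls were 1 lower of 4 BRCA1-A members (BRCC3), 1 higher of 7 strand-exchange members (RAD51C) and 1 higher of the 3 nuclease and RecQ members (EXO1). None of the 3 members around BRCA1 and BARD1, the 6 Fanconi core and ubiquitination members, the 7 end-joining members, FANCI or PARP1 was called.

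In the 4 single comparisons of hairpin b 0 of 32 members were called. The share of all genes called was 0.443% in control cells at 0 Gy, 1.16% at 5 Gy, 0.507% in p53 shRNA cells at 0 Gy and 0.709% at 5 Gy. In control cells at 0 Gy no member had an unadjusted limma p under 0.05, where 5.91% of all genes had, and EXO1 (0.23, -0.00 to 0.46, p 0.0513) and PARP1 (0.21, -0.00 to 0.42, p 0.0542), the break-sensing ADP-ribosyltransferase, came closest. At 5 Gy 4 members did (12.5%), where 9.85% of all genes did. NHEJ1 read 4.67, 5.15 and 4.80 with hairpin b against 5.30, 5.33 and 5.44 in control cells. The groups did not overlap, NHEJ1 was detected on 1 hairpin b array against 3 control arrays, and the change was -0.49 (-0.83 to -0.14, limma adjusted p 0.26). RAD51D was next at 0.32 (0.03 to 0.62, limma adjusted p 0.426), followed by BRCC3 and FANCC. With replicate number as a block limma called 1 member at 5 Gy, BRCC3, and 314 genes in all.

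In p53 shRNA cells at 0 Gy the smallest p belonged to EXO1 (0.32, 0.08 to 0.55, limma adjusted p 0.413) and RAD51D. RAD51D read 7.03, 7.03 and 7.08 with both shRNAs against 6.68, 6.62 and 6.67 with p53 shRNA alone, without overlap, a change of 0.39 (0.10 to 0.68, limma adjusted p 0.433). At the other 2 RAD51D probes these groups overlapped (6.48 to 6.67 against 6.12 to 6.61, and 4.94 to 5.63 against 4.63 to 5.37). At 5 Gy RAD51C (0.32, 0.11 to 0.54, limma adjusted p 0.229) came before XRCC6, the Ku70 subunit that binds broken ends (-0.23, -0.48 to 0.02, limma adjusted p 0.615), and RAD51C alone had an unadjusted p under 0.05, which is 3.12% of the members beside 8.97% of all genes.

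A further question was how p53 depletion moved the members. Averaged over 0 and 5 Gy with and without hairpin b, RAD51C fell with p53 shRNA, which is 1 of 32 members (3.12%) where 3.48% of all genes were called and 2.36% were called lower. At an unadjusted p under 0.05 there were 6 members (18.8%), beside 15.3% of all genes. The 12 arrays with p53 shRNA, alone or with hairpin b, read from 11.37 to 11.96 and the 12 without it from 11.58 to 12.06. The ranges overlapped, and RAD51C was lower in 7 of 8 pairs on the same chip. For every gene the p53 shRNA pairs on chips 2 and 3 joined arrays of different replicate number. The mean change was -0.19 (SE 0.05, -0.30 to -0.08), a 1.14-fold lower level, with a limma adjusted p of 0.0451. Its other 2 probes changed by -0.10 and -0.05 (limma adjusted p over all probes 0.628 and 0.858), and the probe used here stood at 0.0565 in that adjustment. The call was kept in 5 of 24 fits that each left out 1 array (limma adjusted p 0.0307 to 0.0931), those without hairpin b replicate 3 at 0 Gy or replicate 1 at 5 Gy, p53 shRNA replicate 2 at 0 Gy or replicate 1 at 5 Gy, or both shRNAs replicate 2 at 5 Gy, and was lost with chip as a block (-0.18, limma adjusted p 0.054).

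WRN came next. It read 7.75, 7.78 and 7.89 with p53 shRNA at 0 Gy against 7.99, 8.38 and 8.08 in control cells, and these groups did not overlap. The single change was -0.34 (-0.60 to -0.09, limma adjusted p 0.682). The mean change was -0.22 (-0.34 to -0.09, limma adjusted p 0.0501), lower in 7 of 8 pairs on the same chip. BARD1, the obligate partner of BRCA1, also had a mean change of -0.22 (-0.38 to -0.07, limma adjusted p 0.125) and was lower in 7 of 8 pairs. With replicate number as a block limma called 3 members, RAD51C (adjusted p 0.0209), WRN (0.0261) and BARD1 (0.0482), and 995 genes in all (8.01%). XRCC3, a strand-exchange factor, and PALB2, which links BRCA1 to BRCA2, each stood at 0.17 (limma adjusted p 0.225 and 0.235). LIG4, the DNA ligase of end joining, stood at -0.10 at the probe used here. A second LIG4 probe was detected on 10 of the 12 arrays without p53 shRNA (4.64 to 5.57) and on 2 of the 12 with it (4.49 to 5.15), so that it met the detection rule mainly through the arrays where it was higher, most arrays with p53 shRNA lay at background, and no size or p is given for it.

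In the 4 single comparisons of p53 shRNA 0 of 32 members were called, where 0.33% of all genes were called in control cells at 0 Gy, 0.701% at 5 Gy, 0.153% in hairpin b cells at 0 Gy and 0.395% at 5 Gy. In control cells WRN and BARD1 (-0.28, -0.59 to 0.04, limma p 0.0831) had the smallest p at 0 Gy. At 5 Gy RAD51C stood at -0.35 (-0.56 to -0.13, limma adjusted p 0.203), its irradiated control arrays all above its irradiated p53 shRNA arrays. PALB2 stood at 0.33 in that comparison (0.03 to 0.62, limma adjusted p 0.552). In hairpin b cells BARD1 (-0.42, -0.74 to -0.11, limma adjusted p 0.792) and WRN (-0.30, -0.56 to -0.05, limma adjusted p 0.989) came first at 0 Gy, and NHEJ1 (0.45, 0.11 to 0.80, limma adjusted p 0.438) and DCLRE1C (-0.44, -0.90 to 0.01) at 5 Gy. Most irradiated hairpin b arrays did not detect NHEJ1, as given above, so its size there rests on values near background.

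Differences between these changes were tested as interactions, and 0 of 32 members were called in any of the 3. For irradiation by hairpin b 0 of all genes were called, for irradiation by p53 shRNA 0.0161% were, and for hairpin b by p53 shRNA 0 were, and 1 member (3.12%) had an unadjusted limma p under 0.05 in each, where 5.65%, 3.42% and 2.00% of all genes had. For irradiation by hairpin b this was PARP1 (-0.22, -0.43 to -0.01, limma adjusted p 0.863), followed by UBE2T (0.21, -0.01 to 0.43). For irradiation by p53 shRNA it was DCLRE1C (-0.51, -0.97 to -0.05, limma adjusted p 0.998), followed by EXO1 (0.23, -0.01 to 0.46). For hairpin b by p53 shRNA it was NHEJ1 (0.43, 0.08 to 0.78, limma adjusted p 1.00), followed by XRCC5, the Ku80 subunit (0.21, -0.07 to 0.49). NHEJ1 was detected on 19 arrays of the first experiment, and most irradiated hairpin b arrays were not among them. A dependence of a member's irradiation change on NFBD1 or p53 was therefore not detected with 3 arrays a group. The intervals of both irradiation interactions allow differences past 1.5-fold for 5 of the 32 members.

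The second hairpin was compared with its own controls. BABAM2 rose and BRCA1, FANCC, FANCG and XRCC3 fell, which is 5 of 29 members (17.2%), while 26.2% of all 11040 genes were called in that comparison. Of the 29 members 1 was called higher, where 13.6% of all genes were, and 4 were called lower, where 12.6% of all genes were. At an unadjusted p under 0.05 there were 10 members (34.5%), beside 37.9% of all genes. The members' median was -0.06, with 8 of 29 above 0, beside 0.01 over all genes.

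BABAM2, the BRCA1-A subunit also called BRCC45, read 9.68, 9.88 and 9.73 in the controls and 10.25, 10.25 and 10.21 with the second hairpin. All 3 depleted arrays lay above the controls, and the change was 0.48 (SE 0.07, 0.31 to 0.64), 1.39-fold, with a limma adjusted p of 0.00137. The other 2 BABAM2 probes changed by 0.43 and 0.17 (limma adjusted p over all probes 0.00176 and 0.189).

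BRCA1 read 8.06, 7.94 and 7.91 in the controls and 7.57, 7.63 and 7.62 with the second hairpin. All depleted arrays lay below the controls, and the change was -0.36 (SE 0.07, -0.51 to -0.21), a 1.28-fold lower level, with a limma adjusted p of 0.00439. XRCC3, which forms a complex with RAD51C, read 6.55, 6.61 and 6.49 in the controls and 6.28, 6.23 and 6.34 with the hairpin, again without overlap. Its change was -0.27 (SE 0.07, -0.42 to -0.12, limma adjusted p 0.0164), and limma did not call it without control replicate 2 (adjusted p 0.0584), hairpin replicate 1 (0.0509) or hairpin replicate 2 (0.0566).

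Of the Fanconi core, FANCC read 5.74, 5.62 and 5.57 in the controls and 5.26, 5.42 and 5.23 with the second hairpin, a change of -0.34 (SE 0.08, -0.51 to -0.16, limma adjusted p 0.0118). FANCG, a subunit that also binds XRCC3, read 9.84, 9.77 and 9.71 against 9.51, 9.49 and 9.53, a change of -0.26 (SE 0.06, -0.41 to -0.12, limma adjusted p 0.0149). In both genes every depleted array lay below every control array. FANCE, FANCL and UBE2T, the other 3 tested members of that role, were not called. BABAM2, BRCA1, FANCC and FANCG were called in 6 of 6 fits that each left out 1 array.

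None of the 5 tested end-joining members, the 3 nuclease and RecQ members, FANCI or PARP1 was called with the second hairpin. The closest were RAD54L, a motor protein of strand exchange (-0.26, -0.46 to -0.06, limma adjusted p 0.0546), XRCC5 (-0.24, -0.43 to -0.05, limma adjusted p 0.0615) and EXO1 (-0.20, -0.36 to -0.04, limma adjusted p 0.0658). A second EXO1 probe changed by -0.55 (limma adjusted p over all probes 0.00122), so the 2 EXO1 probes differed in call. The second BRCC3 probe was detected on 3 control arrays (5.05 to 5.33) and on 1 array with the second hairpin (4.54 to 5.07 over the 3), too near background for a size, beside -0.10 (-0.24 to 0.03) at the probe used here.

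Cell-cycle lists moved in the same comparison. With the second hairpin 22 of 30 G2/M genes were called lower (median -0.30). Of 27 DNA replication and G1/S genes 9 were called lower and 1 higher (median -0.12). Of 21 p53 target genes 13 were called higher (median 0.32), and 4 of 37 additional repair genes were called lower (median -0.06). Of all genes 26.2% were called there. With hairpin b averaged, 1 of 30 G2/M genes and 2 of 26 replication genes were called lower and 1 of 20 p53 targets higher. Of all genes 5.66% were called in that average. What part these differences have in the members' changes was not tested.

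Set side by side, some members called with either hairpin had changes of the same sign and others of opposite signs. BABAM2 was 0.48 with the second hairpin and -0.14 (-0.46 to 0.17) with hairpin b in unirradiated control cells. BRCA1 was -0.36 and 0.05 (-0.25 to 0.35), EXO1 was -0.20 and 0.23, and FANCG was -0.26 and 0.06. FANCC was -0.34 and -0.28 (-0.65 to 0.09), and RAD51C 0.14 (-0.07 to 0.36) and 0.15 (-0.06 to 0.36). XRCC3 was -0.27 and -0.09, and BRCC3 -0.10 and -0.38.

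A joint fit of all 30 arrays, added after these values were seen, tested the difference between the 2 hairpins' changes at 0 Gy. For it the arrays of both experiments were normalized together and shared 1 estimate of the spread. This fit called 0 of 32 members, where 2.67% of 12667 genes were called, and 4 members (12.5%) had an unadjusted p under 0.05, where 12.36% of all genes had. The difference was 0.61 for BABAM2 (SE 0.20, 0.20 to 1.01, limma adjusted p 0.111), -0.43 for EXO1 (SE 0.14, -0.73 to -0.13, limma adjusted p 0.14), 0.34 for BABAM1 (limma adjusted p 0.296) and -0.40 for BRCA1 (limma adjusted p 0.36).

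**Figure D4:**
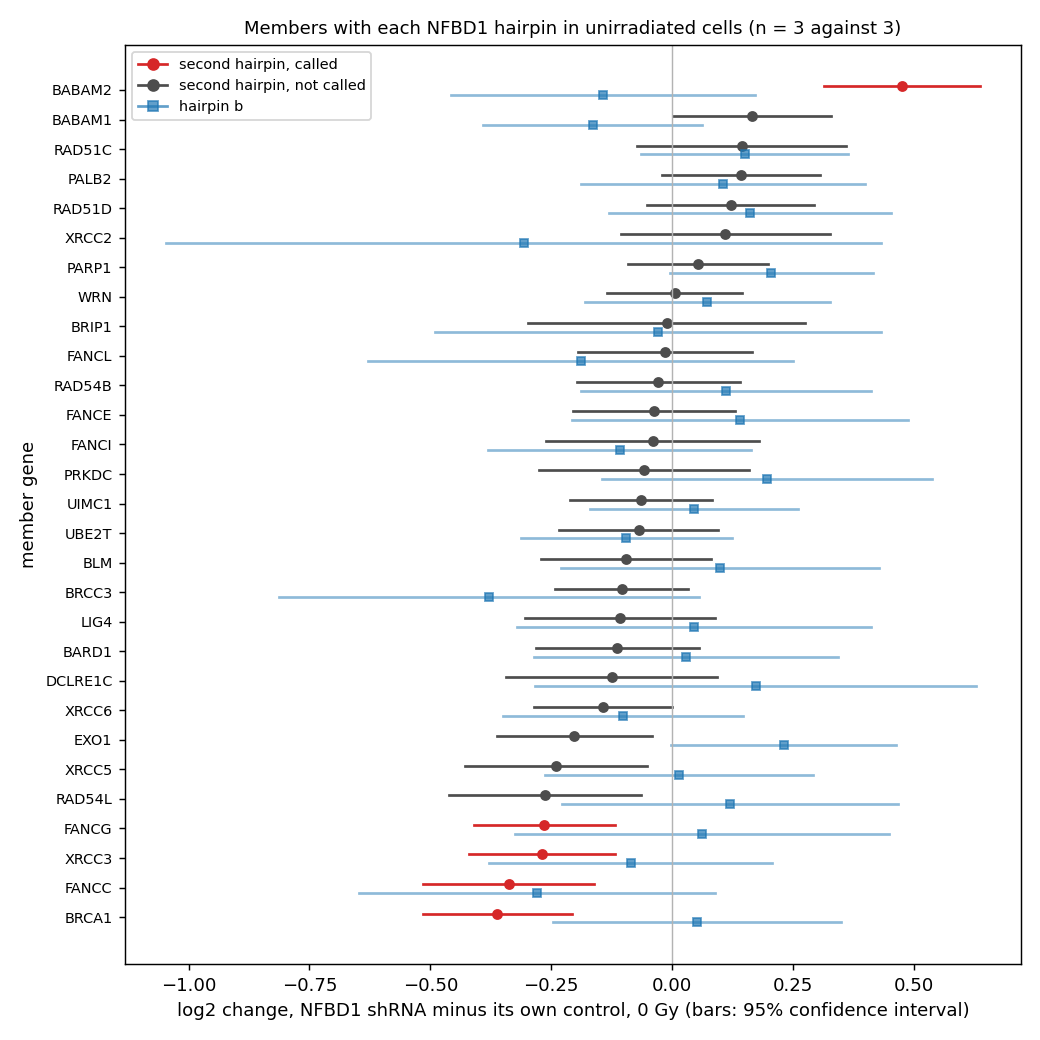
Log2 change in unirradiated cells (horizontal axis, NFBD1 shRNA minus its own control, 3 arrays against 3) with 95% confidence intervals for each of the 29 members tested in both experiments, with circles for the second hairpin (red where called) and blue squares for hairpin b. BABAM2 is at 0.48 with the second hairpin and -0.14 with hairpin b, and the intervals of hairpin b are the wider ones for most members.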

How the data were processed

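Probe intensity, averaged over beads, was deposited by the authors unnormalized and with no background subtracted, per the file headers and the values themselves. The same deposited table gives each probe a detection p-value on each array. Its 60 further per-sample columns were not used. The authors also deposited processed values on a log2-like scale (median 6.951 on every array, the same ranks as the signal, not centred on 0, direction as in the signal, treatment of low values unknown), tried as an alternative. Sources used here name neither the scanner software nor a genome build.

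Probes were named through the platform annotation: 27577 had 1 symbol, 13 several and 21212 none, and 27540 of the first matched RefSeq (GRCh38.p14), used for current symbols and promoter sequences. Each experiment was normalized on its own by neqc at an offset of 16 (R 4.3.3, limma 3.58.1), which infers the background from detection p-values, applies quantile normalization and returns log2 intensities, with levels of one probe not set against those of another. A probe needed a detection p-value below 0.01 on 3 or more of an experiment's arrays, and the brightest such probe by mean stood for its gene. limma (lmFit, eBayes) fitted 1 mean per group with a spread shared by the whole experiment, on 16 residual degrees of freedom in the first and 4 in the second. Calls were made at a Benjamini-Hochberg adjusted p under 0.05 over all genes tested (19 comparisons). The pipeline was tested on simulated data. The number of arrays limits the precision.

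Every member called in a comparison is named with its values; where none was called, the 2 with the smallest p are named; the rest are given by role. The members, lists and rules were chosen with earlier results of these data known. Same-numbered arrays, by the numbers in the sample titles, deviated together (correlation over 0.1 for every number) in 9 of 13 comparisons of 2 groups. The exceptions were irradiation in control cells (0.09 at the lowest), p53 shRNA at 0 Gy (-0.14) and at 5 Gy (0.09), and the second hairpin (-0.06). The main fit had no block and took no numbers as pairs, which only the alternative with replicate number as a block did. Alternatives were other normalizations and background settings, the authors' values, no detection filter, the mean of a gene's probes, chip or replicate number as a block, and leaving out each array.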

Additional observations from a re-analysis of the deposited data

How the results depend on the processing

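Of 144 counts of called members under alternatives other than leaving out an array, 128 stayed within 1.5 times the count reported and 16 moved. The 184 refitted changes of called members all kept their direction, and 114 were still called. With hairpin b averaged, scale normalization called 0 members and the mean of a gene's probes 1 (EXO1), and leaving out 1 array gave 0 to 3. With p53 shRNA averaged, 2 members were called without background correction, with the authors' values and with no detection filter (RAD51C and WRN each time) and with the mean of probes (WRN, and LIG4 through a probe near background), 0 with scale normalization and 0 with chip as a block, and 0 to 1 when 1 array was left out. With the second hairpin 8 were called without background correction (EXO1, XRCC5 and RAD54L added, 29.4% of all genes called), 9 with the authors' values (EXO1, XRCC5, RAD54L, XRCC6 and BABAM1 added, FANCC lost at adjusted p 0.0531, 30.9% of all genes) and 3 with scale normalization (FANCG and XRCC3 lost, 15.4% of all genes), and 4 to 7 when 1 array was left out. At 5 Gy the authors' values called 1 member with p53 shRNA (RAD51C). Chip as a block called 1 member with hairpin b at 0 Gy and 1 at 5 Gy, BRCC3 both times.

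With the replicate block, the paired fit, 1 member was called with hairpin b at 5 Gy (BRCC3), 4 with hairpin b averaged (FANCC added) and 3 with p53 shRNA averaged (BARD1 and WRN added), and it changed no other count of members. Calls over all genes rose under it from 703 to 1374 for hairpin b averaged, from 432 to 995 for p53 shRNA averaged and from 224 to 384 for irradiation averaged, and in the 12 comparisons of 2 groups of the first experiment from between 19 and 144 to between 37 and 314. Scale normalization also lowered the calls over all genes, from 703 to 201 for hairpin b averaged, from 432 to 143 for p53 shRNA averaged and from 2896 to 1698 for the second hairpin. It put the median change of all genes between -0.28 (irradiation with hairpin b) and 0.23 (p53 shRNA in hairpin b cells at 5 Gy) on the log2 scale. Of 366 medians of the members, 19 moved, and scale normalization put them at -0.10 for irradiation in control cells, -0.36 with hairpin b and -0.06 averaged, against 0.02, -0.02 and 0.04. The causes of these differences were not tested. No member was called in the irradiation comparisons or interactions under any alternative run. Probes near background limit FANCF, NHEJ1 and BRIP1 most, since they were not detected on every array.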

Other observations

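The additional list of break and crosslink repair genes holds 37 tested genes, of which 2 were called with hairpin b averaged and 4 with the second hairpin, where 5.66% and 26.2% of all genes were called. RMI1, a scaffold of the complex in which BLM and topoisomerase IIIα resolve joint molecules, fell with hairpin b averaged by 0.52 on the log2 scale (SE 0.07, limma adjusted p 1.484e-05) and with the second hairpin by 0.34 (SE 0.09, limma adjusted p 0.0181). RAD51B, the strand-exchange factor that binds RAD51C, rose with hairpin b averaged by 0.47 (SE 0.08, limma adjusted p 0.000977). With the second hairpin RMI2, RMI1's partner, fell by 0.52 (limma adjusted p 0.0011), EME1, a subunit of the MUS81 nuclease, by 0.44 (limma adjusted p 0.00552), and USP1, the deubiquitinase of FANCD2 and FANCI, by 0.29 (limma adjusted p 0.0321).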
